A study of Mus musculus with 9 samples.

Results

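Acute phase proteins are plasma proteins whose production in the liver changes during inflammation, and 10 mouse genes of this kind were followed here in liver RNA: the pentraxins Apcs and Crp, the serum amyloid A genes Saa1, Saa2 and Saa4, the orosomucoids Orm1 and Orm2, haptoglobin (Hp), hemopexin (Hpx) and lipocalin 2 (Lcn2). They were chosen by name, as the rows of the deposited gene table whose gene name was one of the 10. That gave 9 of the 52151 gene entries, because no entry carried the name Orm1. Of these 9 entries, 8 held an annotated transcript, averaged 0.5 FPKM or more (fragment numbers scaled to transcript length and to the size of the library) and were tested in each comparison. The entry named Crp held only an assembled transcript and was not tested.

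Whole transcriptome sequencing was done on liver from mice labelled as 8 weeks old after 5 weeks of feeding, with 3 libraries in each of 3 groups. Pair-fed (PF) mice received an isocaloric control liquid diet, alcohol-fed (AF) mice received the Lieber-DeCarli diet, a liquid diet that contains ethanol, and the group called AF with MNA here received that diet with MNA at 50 mg/kg, injected daily into the abdominal cavity. MNA is not spelled out in the labels. The labels name no engineered allele in any group. The strain is labelled C57BL/6 for all PF and AF libraries, but C57BL/7, C57BL/8 and C57BL/9 for the 3 AF with MNA libraries, and the study's methods describe male C57BL/6J mice for PF and AF. Whether a library came from 1 mouse or from pooled mice was not given in the sources used here, so the p-values measure the spread between these libraries. Total read numbers recovered from the circular RNA table lay between 57800660 and 82179248 per library and overlapped between the groups. The hepatocyte marker list summed to 18600 to 26400 FPKM in every library, with all 11 of its genes tested, whereas of 15 neutrophil markers only Csf3r averaged 0.5 FPKM or more, and none of 13 lymphocyte markers did.

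In the acute phase response, macrophages and other cells that sense injury or microbes release interleukin-6, interleukin-1 and tumour necrosis factor. These cytokines act on hepatocytes through STAT3, NF-kB and C/EBP factors and raise the transcription of the positive acute phase genes, while genes such as albumin and transthyretin, the negative acute phase genes, fall. In mice, Saa1 and Saa2 are the strongly inducible serum amyloid A genes of the liver, Saa4 is largely constitutive, and serum amyloid P (the product of Apcs) rather than C-reactive protein (the product of Crp) is the main pentraxin of the response.

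The promoters of 4 members are shown because the results turn on them: Saa1 and Saa2 had nearly the same profile over the libraries, Saa4 did not share it although it lies in the same gene cluster, and Apcs was the member that differed between the groups. Each line gives the 250 bases before the RefSeq start site (GRCm38.p6), 5′ to 3′ in the direction of the gene, and capitals mark matches to the letters of a C/EBP or STAT3 motif on either strand.
Saa1 (chr7:46742981-46743230, minus strand): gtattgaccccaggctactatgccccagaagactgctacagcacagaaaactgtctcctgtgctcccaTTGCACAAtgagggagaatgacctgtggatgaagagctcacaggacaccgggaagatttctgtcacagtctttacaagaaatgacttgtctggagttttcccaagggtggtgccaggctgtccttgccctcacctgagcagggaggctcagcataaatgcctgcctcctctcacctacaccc
Saa2 (chr7:46751583-46751832, plus strand): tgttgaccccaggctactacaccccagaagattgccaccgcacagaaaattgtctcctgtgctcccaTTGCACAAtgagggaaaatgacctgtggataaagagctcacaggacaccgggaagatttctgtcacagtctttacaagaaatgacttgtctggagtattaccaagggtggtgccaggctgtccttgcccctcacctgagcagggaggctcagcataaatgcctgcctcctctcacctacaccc
Saa4 (chr7:46732604-46732853, minus strand): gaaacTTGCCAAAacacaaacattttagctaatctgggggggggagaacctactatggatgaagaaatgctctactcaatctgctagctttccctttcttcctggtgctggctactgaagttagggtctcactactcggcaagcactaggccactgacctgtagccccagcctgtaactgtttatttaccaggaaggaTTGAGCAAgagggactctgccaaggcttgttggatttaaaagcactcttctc
Apcs (chr1:172895055-172895304, minus strand): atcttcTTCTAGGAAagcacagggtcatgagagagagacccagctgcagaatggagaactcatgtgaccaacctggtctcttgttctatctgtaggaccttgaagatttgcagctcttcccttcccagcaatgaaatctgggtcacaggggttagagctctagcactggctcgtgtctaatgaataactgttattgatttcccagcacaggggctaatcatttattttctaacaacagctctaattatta

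The letters TTNNGCAA, for C/EBP, were found in 6 of the 8 member promoters in the RefSeq table, where 10.8% of 32851 promoters of the same length (300 bases, of which 50 lie after the start site) held them. The single STAT3 match, to TTCNNNGAA, was in the Apcs promoter, against 8.30% of all promoters. GGNNTTNCC, for NF-kB, and GTTAATNAT, for HNF1, were in none of the 8, against 16.0% and 0.801% of all promoters. All 4 motifs were searched on both strands and no match overlapped another. In the Saa1 and Saa2 promoters, 287 of 299 aligned bases were identical (96.0%), and the C/EBP letters began at positions -182 and -183 from the start site. Saa1 and Saa4 shared 59.9% of 252 aligned bases. A match is a stretch of letters and no measure of binding.

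**Figure D1:**
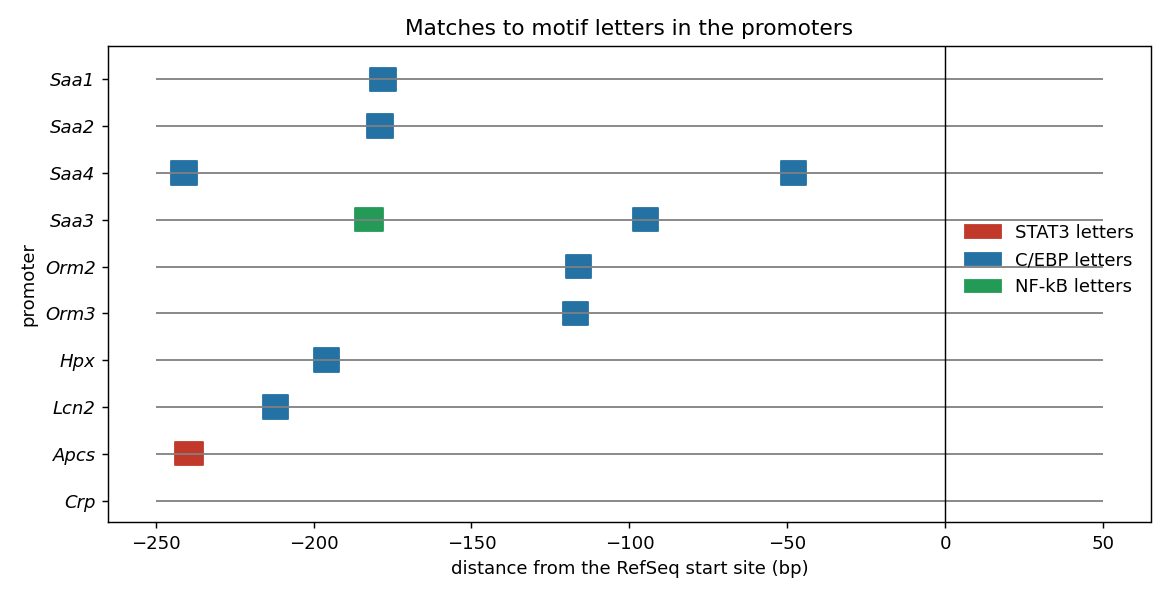
Each line is 1 promoter of the RefSeq table, from 250 bases before to 50 bases after the start site, with the distance in base pairs on the x axis, and blocks mark matches to C/EBP letters (blue), STAT3 letters (red) or NF-kB letters (green, in Saa3 alone). The Saa1 and Saa2 matches begin at almost the same position, -182 and -183, Saa4 has a match at -52, and Crp has none.

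Saa1 (chromosome 7, 46740497 to 46742980, minus strand) and Saa2 (46751790 to 46754313, plus strand) are neighbours that face away from each other, 8810 base pairs apart. Saa4 (46727998 to 46732603, minus strand) and Saa3 (46711998 to 46715700, minus strand) lie beside them. Hpx is on the same chromosome at 105591613 to 105600137 (minus strand), and Hp is on chromosome 8 at 109575128 to 109579172 (minus strand). Lcn2 is on chromosome 2 at 32384633 to 32388252 (minus strand). The 3 orosomucoid genes lie in a row on the plus strand of chromosome 4, with Orm1 at 63344560 to 63348163, Orm3 at 63356162 to 63359511 and Orm2 at 63362449 to 63365878. On chromosome 1, Apcs spans 172893961 to 172895041 (minus strand) and Crp spans 172698055 to 172833031 (plus strand). These positions are from GENCODE M21, on GRCm38. All members are protein-coding genes, and an entry's FPKM covers its whole exonic sequence.

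Per length, Hpx was the most abundant member. Its lowest value over the 9 libraries, 596 FPKM, was above the highest value of any other tested member, 487 FPKM for Hp. By the median over 9 libraries the order was Hpx (940 FPKM), Orm2 (88.3 FPKM), Hp (87.5 FPKM), Saa4 (23.9 FPKM), Apcs (19.3 FPKM), Lcn2 (10.96 FPKM), Saa1 (5.43 FPKM) and Saa2 (1.09 FPKM). Below Hpx, neighbours in this order were not separated by the spread over libraries, since the ranges of all neighbouring pairs overlapped. The 8 tested members together made up between 0.362% and 1.57% of all FPKM in a library, and Hpx supplied 64.4% to 87.1% of that sum.

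For most members, libraries of the same group differed widely. PF replicate 1 was the highest PF library and AF replicate 2 the highest AF library for all 8 tested members, a pattern chosen for description after the values were seen. Among the 12252 annotated entries that averaged 0.5 FPKM or more in the 9 libraries, 992 (8.10%) had both of these libraries on top. Summed over the members, PF replicate 1 held 3310 FPKM and AF replicate 2 held 3320 FPKM, against 775 to 1610 FPKM in the other 7 libraries.

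**Figure D2:**
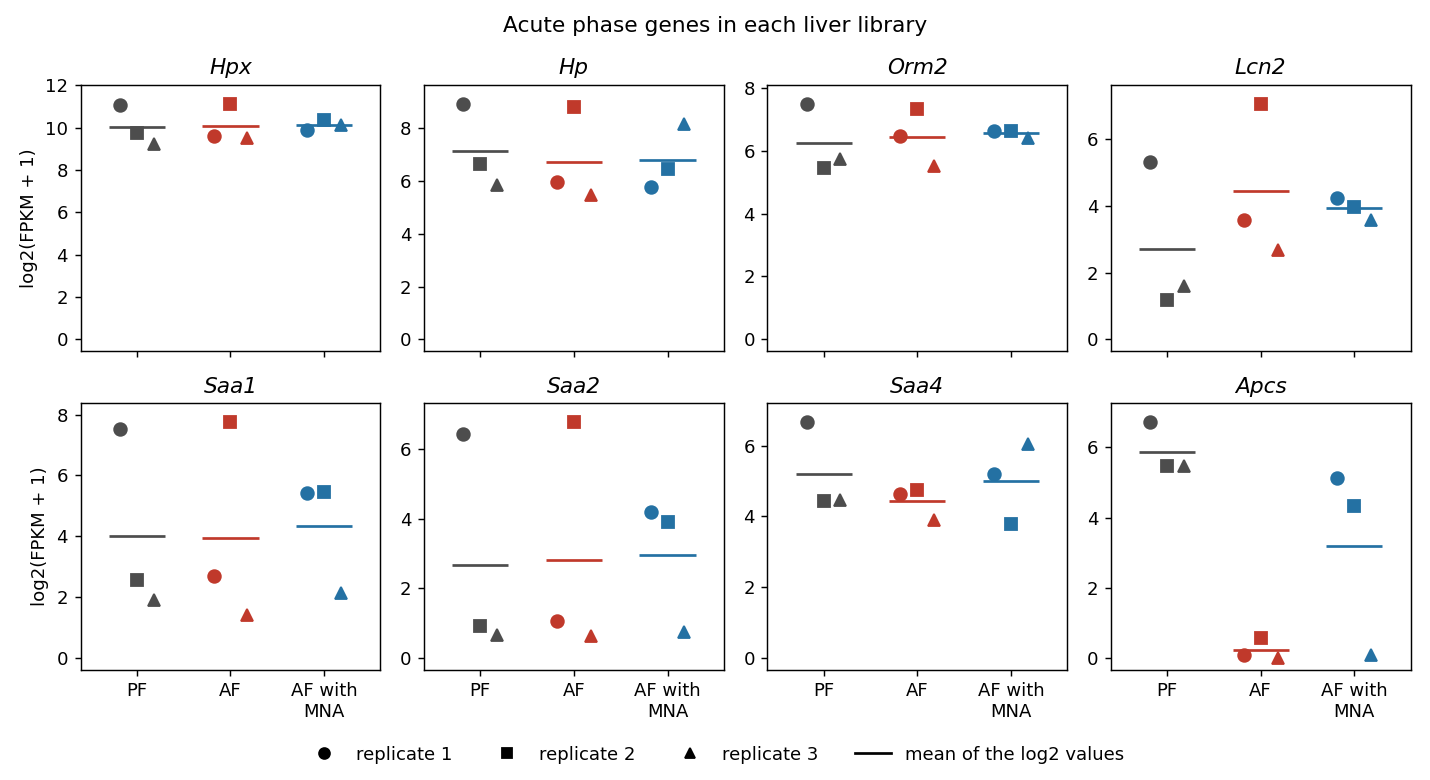
The y axis gives log2(FPKM + 1) of 8 acute phase genes in PF (grey), AF (red) and AF with MNA (blue), with 1 point per library, the replicate number as the symbol and the mean of the log2 values as the bar. PF replicate 1 and AF replicate 2 stand at the top of their groups in every panel, and Apcs lies under 0.5 FPKM in all AF libraries.

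Saa1 and Saa2, whose products travel with high-density lipoprotein in plasma during inflammation, differed widely between libraries of the same group. Saa1 read 184, 4.88 and 2.70 FPKM in PF replicates 1, 2 and 3, 5.43, 214 and 1.64 FPKM in AF, and 42.0, 42.8 and 3.43 FPKM in AF with MNA. Its highest library thus held 130 times the level of its lowest, and both were AF libraries. For Saa2 the levels were 84.9, 0.89 and 0.59 FPKM in PF, 1.09, 108 and 0.55 FPKM in AF, and 17.3, 14.0 and 0.66 FPKM in AF with MNA. In each of the 3 groups some libraries were high for both genes and some were low for both, so the groups overlapped. Saa2 followed Saa1 more closely than any other of the 12252 entries, with a root mean square difference of 0.28 between their centred log2(FPKM + 1) profiles over 9 libraries. The ratio of Saa1 to Saa2 FPKM was not constant. It was 2.17, 1.98 and 2.43 in PF replicate 1, AF replicate 2 and AF with MNA replicate 1, and 5.48, 4.98 and 5.20 in PF replicate 2, AF replicate 1 and AF with MNA replicate 3. In PF replicate 3, AF replicate 3 and AF with MNA replicate 2 it was 4.58, 2.98 and 3.06. The reference transcripts of the pair are 94.4% identical and share 13.2% of their stretches of 50 bases, so how reads were divided between them is uncertain.

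Saa4, described as largely constitutive, varied less than Saa1 and Saa2 and in another way. It was at 100.4, 20.5 and 21.2 FPKM in PF, 23.9, 26.1 and 13.8 FPKM in AF, and 35.9, 12.7 and 64.6 FPKM in AF with MNA. Within AF its highest library exceeded its lowest 1.89 times, where Saa1 differed 130 times between the same libraries. In PF and AF with MNA the highest Saa4 library exceeded the lowest 4.9 and 5.1 times, against 68.2 and 12.5 times for Saa1. Over all 9 libraries Saa4 spanned 7.92 times, more than Orm2 (4.15 times) and Hpx (3.75 times). Among the MNA libraries Saa4 was highest in replicate 3, in which Saa1 and Saa2 were lowest. The ratio of Saa1 to Saa4 FPKM therefore ran from 0.0531 in AF with MNA replicate 3 to 8.19 in AF replicate 2. Saa3, the gene of this family known for expression outside hepatocytes, stayed between 0.30 and 1.14 FPKM in all 9 libraries.

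Hp and Hpx bind free hemoglobin and free heme in plasma. Hp read 487, 99.0 and 57.3 FPKM in PF, 60.6, 449 and 42.8 FPKM in AF, and 53.9, 87.5 and 289 FPKM in AF with MNA. Each group had a single high library, and for AF with MNA it was replicate 3, as for Saa4 and unlike Saa1 and Saa2. Hpx read 2133, 865 and 596 FPKM in PF, 776, 2235 and 737 FPKM in AF, and 940 (replicate 1), 1322 and 1113 FPKM in AF with MNA. Hpx had the narrowest range of the members, with 3.75 times between its highest and lowest libraries against 11.4 times for Hp. The ratio of Hpx to Hp FPKM lay between 3.85 and 4.98 in PF replicate 1, AF replicate 2 and AF with MNA replicate 3, and between 8.74 and 17.4 in the other libraries.

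Lcn2 binds the siderophores with which bacteria take up iron, and is made by hepatocytes and by neutrophils. Its levels were 39.3, 1.26 and 2.06 FPKM in PF, 10.9, 133 and 5.48 FPKM in AF, and 17.9, 14.8 and 10.96 FPKM in AF with MNA. Apart from PF replicate 1, the PF libraries were below every library of the other groups. Over all 9 libraries the entries nearest to Lcn2 were Fgl1, a secreted hepatocyte protein of the fibrinogen family (root mean square difference 0.88), Plk3, a stress-responsive kinase (0.91), and the small nucleolar RNA entry Rnu3b1 (1.01). The neutrophil marker list summed to 3.54 FPKM in PF replicate 1 and 4.13 FPKM in AF replicate 2, with a range of 1.18 to 5.65 FPKM over the 9 libraries. No marker of that list was at 0 in all libraries, and its part in the Lcn2 levels was not tested.

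The orosomucoids, or alpha-1-acid glycoproteins, carry drugs and steroids in plasma. The entry named Orm2 joined the annotated transcripts of Orm1, Orm2, Orm3 and the pseudogene Gm11212, so its values stand for the whole cluster, and no separate value can be given for Orm1. The reference transcripts of Orm1 and Orm2 are 91.0% identical and share 20.4% of their stretches of 50 bases. This entry read 179, 43.1 and 52.4 FPKM in PF, 88.3, 158 and 44.5 FPKM in AF, and 97.6, 97.3 and 83.4 FPKM in AF with MNA. The 3 AF with MNA libraries lay within 1.17 times of each other, inside the range of both other groups. Its profile was nearest to that of Itih4, an inter-alpha-trypsin inhibitor chain that is itself an acute phase protein, with a root mean square difference of 0.22, then Prg4 (0.33) and Fgl1 (0.34).

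Apcs encodes serum amyloid P, a pentraxin that binds amyloid, chromatin and microbial surfaces. It read 104, 43.1 and 43.2 FPKM in PF, was listed at 0.05, 0.48 and 0 FPKM in AF, and read 34.2 and 19.3 FPKM in AF with MNA replicates 1 and 2 but 0.06 FPKM in replicate 3. All PF libraries were thus above all libraries of the other groups, and 4 libraries fed alcohol were near 0. Of 1488 entries with at least 10 FPKM in every PF library, Apcs and Hsd3b5, a steroid dehydrogenase of male mouse liver, were the 2 under 1 FPKM in every AF library. Hist1h2bg, a histone H2B gene and the entry nearest to Apcs (root mean square difference 1.10), was listed at 0 in the same 4 libraries and at 6.97 to 12.3 FPKM in the other 5. No further entry had values in these 4 libraries that were all under 10% of its lowest value elsewhere. Among all 4041 tested entries whose lowest of the 3 highest values was at least 5 FPKM, 99, Apcs among them, had 1 or more libraries under 10% of that value while the remaining ones exceeded 40%. Of 69 entries for ribosomal proteins, elongation factors, actin, tubulin, Gapdh and albumin that reached 10 FPKM, none fell under 10% of the lowest of its 3 highest values in any library. Hsd3b5, Hist1h2bg and the set of 69 were chosen for mention after their values were seen.

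Crp, the other pentraxin, is only weakly inducible in mice. The entry with its name was listed at 0 FPKM in all PF libraries, at 1.61, 0 and 0.84 FPKM in AF, and at 0, 0.07 and 0 FPKM in AF with MNA. Both annotated Crp transcripts sat in a different entry, which carried the name of Gm38051, a processed pseudogene inside the Crp gene (chromosome 1, 172781445 to 172781877), and which also held 4 assembled transcripts. That entry, chosen after its values were seen, read 1.03, 1.74 and 0.96 FPKM in PF, 7.36, 4.92 and 2.97 FPKM in AF, and 5.67, 3.06 and 1.78 FPKM in AF with MNA. Its AF libraries were all above its PF libraries, the opposite order to Apcs, and the difference of 1.39 ± 0.29 (SE) in log2(FPKM + 1) did not pass the test over all entries (limma adjusted p = 0.147). It passed the unadjusted threshold of the study's methods, an unadjusted p under 0.05 with more than a 2-fold change of the group means, which the methods state for long noncoding RNAs tested with Ballgown and which was applied here to gene entries with limma's p, in AF against PF and in AF with MNA against PF. Groups without overlap were also seen for 18.3% of all entries in AF against PF.

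**Figure D3:**
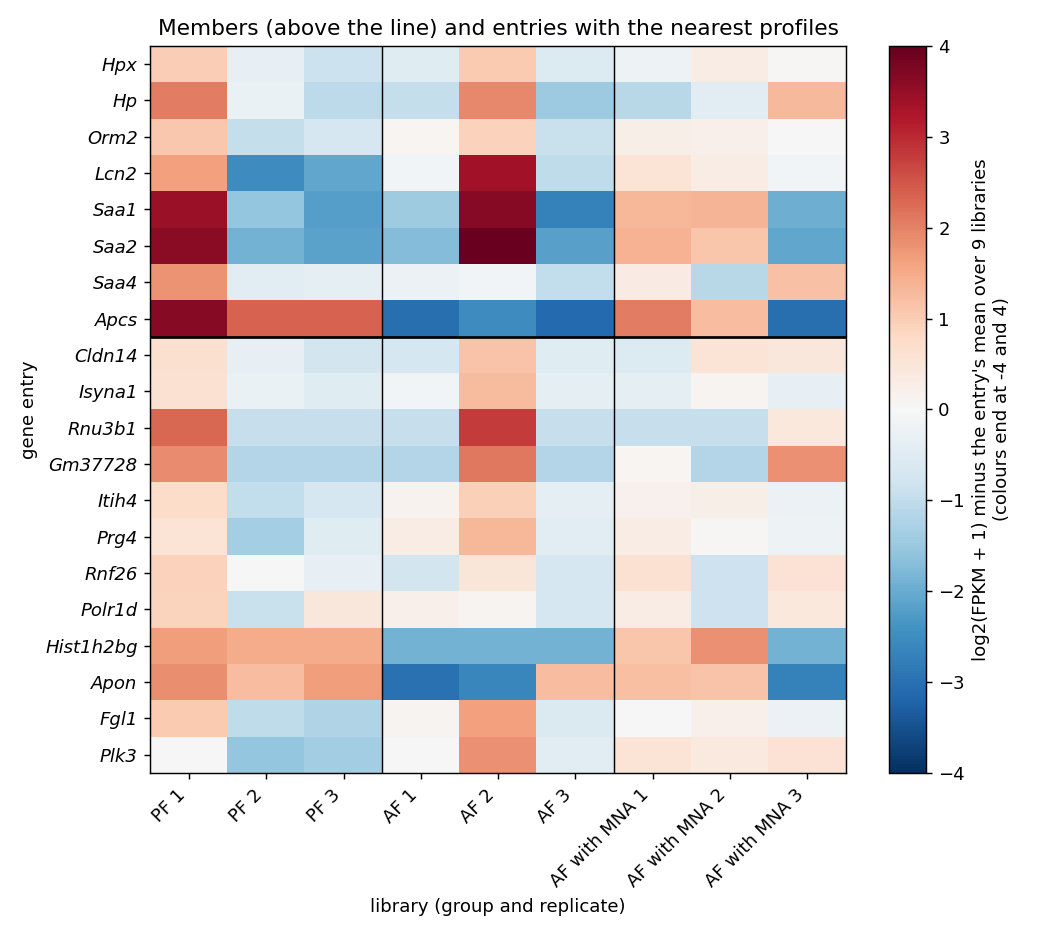
Colours give log2(FPKM + 1) of each entry minus its own mean over 9 libraries, for the 8 tested members (above the line) and the entries with the nearest profiles (below it), with libraries in columns. Saa1 and Saa2 share their red columns PF 1 and AF 2, Saa4 and Hp are high in AF with MNA 3, and Apcs and Hist1h2bg are low in all AF libraries and in AF with MNA 3.

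The first comparison asked how alcohol feeding changed the members. Apcs fell in AF against PF and no other member passed the test. On the log2(FPKM + 1) scale Apcs fell by 5.67 ± 0.37 (SE, n = 3 against 3, limma adjusted p = 0.00397), a scale on which the change of a gene near 0 is understated. In bulk liver RNA, fewer cells of a type and less RNA per cell cannot be told apart. Over all 12268 entries tested, 40 (0.326%) were called at an adjusted p under 0.05, of which 18 (0.147% of those tested) were lower in AF. The threshold in the study's methods was passed by 4.30% of all entries and again by Apcs alone among the members. Apcs was also the sole member whose groups did not overlap, where 18.3% of all entries did not. Summed markers of 3 other cell types also separated these groups, at low levels. The adipocyte list summed to 1.92 to 4.77 FPKM in PF and 5.90 to 7.74 FPKM in AF (6.03 to 7.61 FPKM in AF with MNA), and 3 of its 8 genes were tested. The cholangiocyte list, with 2 of 6 genes tested, summed to 3.29 to 4.36 FPKM in PF and 4.87 to 9.13 FPKM in AF (3.34 to 6.38 FPKM in AF with MNA). The lymphocyte list, with none of 13 genes tested, was lower in AF, at 1.03 to 1.68 FPKM against 1.76 to 2.54 FPKM in PF (1.77 to 2.30 FPKM in AF with MNA). Of the tested genes in these lists, none was called, and the fatty acid carrier Fabp4 passed the threshold of the methods against PF in both AF (0.48 ± 0.10) and AF with MNA (0.41 ± 0.09, SE), as did the lipid droplet protein gene Cidec in AF with MNA (0.52 ± 0.18, SE). No listed gene of the 3 lists that the table held was at 0 in all 9 libraries. The sums of the other marker lists overlapped between PF and AF, but single genes of them passed the threshold of the methods in AF against PF. These were Alas2 of the erythroid list (-1.88 ± 0.33) and Marco of the macrophage list (0.66 ± 0.23). From the hepatocyte list they were Fabp1 (-1.22 ± 0.44) and Tat (1.18 ± 0.45, SE). None was called by adjusted p, and the part of all these markers in the Apcs difference was not tested.

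The other 7 members had differences between -0.76 and 1.74 with standard errors from 0.61 to 2.13. Lcn2 had the largest, at 1.74 ± 1.47 (SE, adjusted p = 0.693 by limma), followed by Saa4 at -0.76 ± 0.62 (SE, adjusted p = 0.68 by limma). With 1 library left out, the Lcn2 difference ran from 0.43 without AF replicate 2 to 3.05 without PF replicate 1, and that of Saa4 from -1.14 without PF replicate 2 to -0.02 without PF replicate 1, and neither was called in any of these fits. Saa1 and Saa2 differed by -0.05 ± 2.06 and 0.15 ± 2.13 (SE), with Saa1 higher in AF by group means (63.9 and 73.6 FPKM), Hpx by 0.07 ± 0.61, Orm2 by 0.20 ± 0.65 and Hp by -0.41 ± 1.10. The median difference of the 8 members was 0.01, against -0.03 over all entries, and 4 of the 8 were positive. The median standard error of the members was 0.874, against 0.169 over all entries, so a difference had to be larger for a member than for most entries to pass the test.

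PF replicate 1 and AF replicate 2 were left out together in an alternative chosen after the data were seen. Since they were the highest libraries of their groups for every member, the smaller standard errors, such as 0.217 for Saa2 and 0.359 for Lcn2, follow from that choice and are no sign of stability. Lcn2 then differed by 1.74 (adjusted p = 0.295 by limma) and passed the threshold of the methods, as 560 of all entries did, Saa1 differed by -0.18, Saa2 by 0.05 and Hp by -0.55, and Apcs stayed called at -5.43 (adjusted p = 0.0105 by limma). The Apcs call ended when all 9 libraries shared 1 estimate of the spread, with the difference still at -5.67 (adjusted p = 0.0754 by limma, 86 of all entries called), and in a fit with a library-size covariate and no moderation, with the difference at -5.78 (adjusted p = 0.271, 0 of all entries called).

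**Figure D4:**
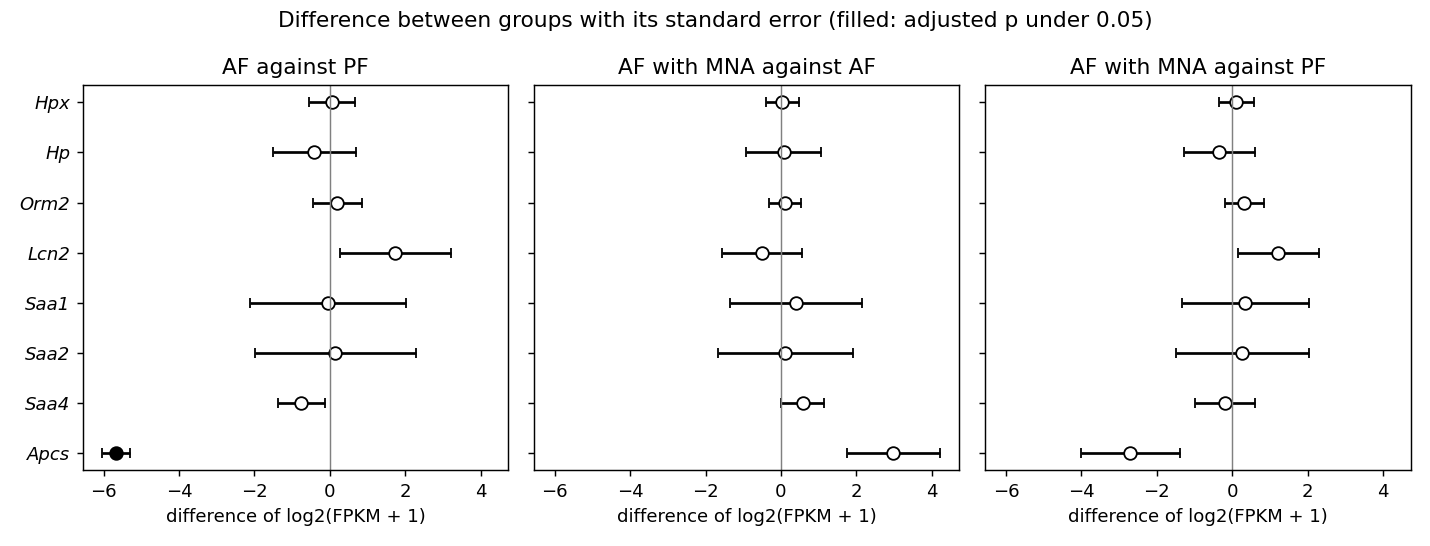
Points give the difference between group means of log2(FPKM + 1) for each tested member and bars its standard error, in the 3 comparisons, with filled points for an adjusted p under 0.05. Apcs in AF against PF is the single filled point, at -5.67, and the Saa1 and Saa2 bars extend about 2 log2 units to each side.

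The next comparisons asked what MNA changed in alcohol-fed mice. They share libraries with the first comparison, so their values are not independent of it. Against AF, limma called none of the 8 members at an adjusted p under 0.05, none had an unadjusted p under 0.05, and 6 of 12214 entries (0.0491%) were called in all. The threshold of the methods was passed by 1.98% of entries and by no member, and the groups overlapped for every member, where 10.1% of entries did not overlap. The difference for Apcs was 2.98 ± 1.24 (SE, limma adjusted p = 0.94), and AF with MNA replicate 3 decided it: without that library the difference was 4.53 ± 0.304 (SE, limma adjusted p = 0.0199) and Apcs was called. That library held 0.06 FPKM of Apcs against 34.2 and 19.3 FPKM in AF with MNA replicates 1 and 2. The small standard error follows from its removal and is no sign of stability. Saa4 differed by 0.58 ± 0.57, Lcn2 by -0.51 ± 1.06, Saa1 by 0.40 ± 1.75, Saa2 by 0.12 ± 1.78, Orm2 by 0.11 ± 0.43, Hp by 0.07 ± 1.00 and Hpx by 0.04 ± 0.45 (SE). By group mean FPKM, 5 of the 7 positive differences turned negative: Saa1 (73.6 in AF and 29.4 in AF with MNA), Saa2 (36.6 and 10.7), Hp (184 and 144), Hpx (1250 and 1120) and Orm2 (97.0 and 92.8). AF replicate 2 was the highest AF library for each of them. The median over members was 0.12, and over all entries 0.01.

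For AF with MNA against PF, limma again called 0 of the 8 members, with none at an unadjusted p under 0.05, and 53 of 12276 entries (0.432%) in all. No member passed the threshold of the methods, which 3.89% of entries did. Apcs differed by -2.70 ± 1.31 (SE, limma adjusted p = 0.424), and it was the member whose groups did not overlap, as for 21.4% of all entries. Without AF with MNA replicate 3 the difference was -1.14 ± 0.482 (SE, limma adjusted p = 0.47). Lcn2 differed by 1.23 ± 1.07 (SE, limma adjusted p = 0.658), while its group means were 14.2 and 14.5 FPKM, a log2 ratio of 0.03. Without PF replicate 1 its difference was 2.54 ± 0.245 (SE, limma adjusted p = 0.0453), which passed, whereas it was 0.46 (limma adjusted p = 0.888) without PF replicate 2 and 0.68 (limma adjusted p = 0.869) without PF replicate 3. PF replicate 1 held 39.3 FPKM of Lcn2 against 1.26 and 2.06 FPKM in the other PF libraries. The small standard error follows from its removal and is no sign of stability. The other 6 members lay between -0.34 and 0.35, and Saa1, Saa2 and Hpx, at 0.35, 0.27 and 0.11, were lower by group means (63.9 and 29.4 FPKM, 28.8 and 10.7 FPKM, 1200 and 1120 FPKM), where PF replicate 1 is the high library.

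The libraries of AF with MNA lay closer together than those of either other group for 6 of the 8 members, counted by the range of log2(FPKM + 1) within each group, and for 38.4% of all 12252 entries. For Lcn2 the ranges were 4.16 in PF, 4.38 in AF and 0.66 in AF with MNA. Orm2 had ranges of 2.03, 1.81 and 0.22, and Hpx of 1.84, 1.60 and 0.49. Apcs and Saa4 were the exceptions, with ranges of 5.05 and 2.26 in AF with MNA. The count rested on PF replicate 1 and AF replicate 2, the highest libraries of their groups for every member. Without them, which leaves 2 libraries in PF and in AF against 3 in AF with MNA, it was 1 of the 8 members (Orm2) and 16.8% of all entries. With 3 libraries per group no test of the spread was made.

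Other genes of the acute phase response were read from lists of related genes. Of 35 other positive acute phase genes, 28 were tested, and none was called by adjusted p in any comparison. In AF against PF, 4 were higher and 2 lower at the unadjusted threshold of the methods, which 4.30% of all entries passed in that comparison, 1.98% in AF with MNA against AF and 3.89% in AF with MNA against PF. The metallothioneins Mt1 and Mt2, which bind zinc and copper, had the largest differences, 4.33 ± 0.64 and 4.56 ± 0.86 (SE, limma adjusted p = 0.0774 and 0.12). Lbp, which presents lipopolysaccharide to CD14, differed by 1.21 ± 0.30, Hamp, the iron hormone hepcidin, by 1.22 ± 0.48, the complement component C9 by -1.28 ± 0.46, and the serine protease inhibitor Serpina1e by -3.29 ± 0.59 (SE). The median over the 28 was 0.10. With MNA against AF, 2 genes passed the unadjusted threshold, both lower: Mt1 by -1.45 ± 0.45 and Mt2 by -1.77 ± 0.60 (SE). Against PF, Mt1 and Mt2 in AF with MNA were higher (2.88 and 2.79) and Serpina1e lower (-2.89), all unadjusted.

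The other positive acute phase genes were mostly high in the same libraries as the members. PF replicate 1 and AF replicate 2 were both on top for 18 of the 28 (64.3%), against 8.10% of all entries and none of 13 negative acute phase genes. Their median excess was smaller than that of the members. These libraries were described because they were on top for all 8 members, so the comparison leans towards the members. For the 28 other genes, PF replicate 1 stood 1.74 times above the mean of the other PF libraries. AF replicate 2 stood 1.95 times above the other AF libraries. The medians for the 8 members were 5.52 and 12.5 times, and over all entries 0.999 and 0.87 times. Among the members the excess in PF replicate 1 ran from 2.42 times for Apcs to 115 times for Saa2. In AF replicate 2 the excess of the members ran from 1.39 times for Saa4 to 132 times for Saa2. The 19.2 times of Apcs rested on values under 0.5 FPKM and entered the median of 12.5 times. Fgl1, with 4.96 and 3.73 times, Itih3, with 2.65 and 2.04 times, and the 3 fibrinogen chain genes Fga, Fgb and Fgg, with 1.74 to 1.81 and 1.87 to 2.18 times, followed the same pattern. Not all of the 28 did. Lrg1, a secreted leucine-rich glycoprotein, was raised 2.98 times in PF replicate 1 and stood at 0.969 times in AF replicate 2. Hamp stood at 0.814 and 1.06 times in these libraries, and Serpina1e at 0.808 and 3.4 times.

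**Figure D5:**
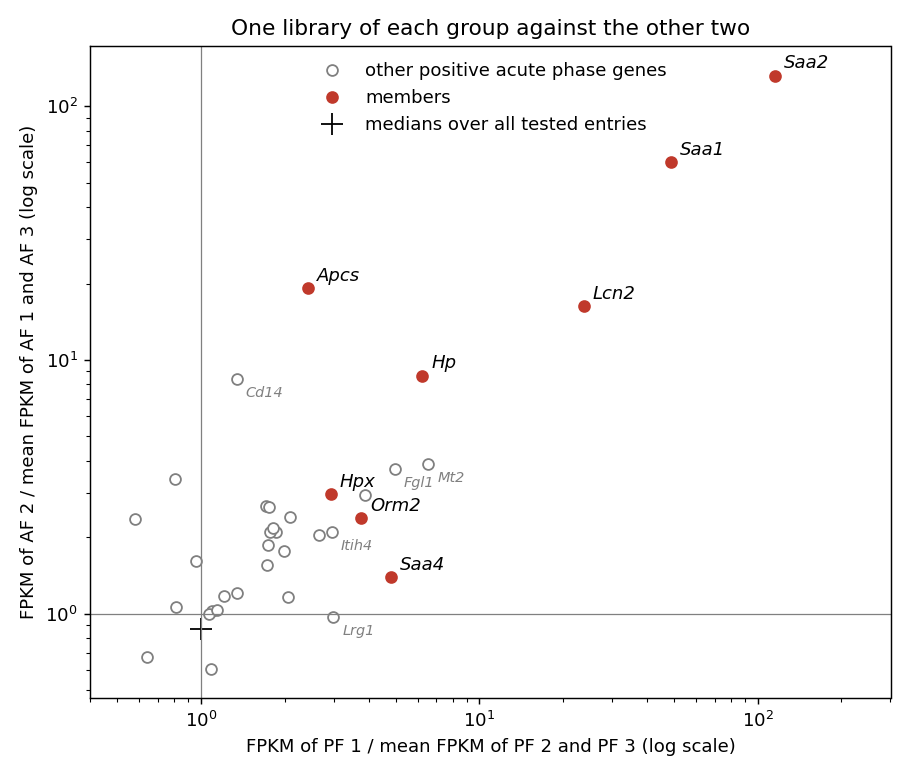
For each gene the x axis gives the FPKM of PF replicate 1 divided by the mean of PF replicates 2 and 3, and the y axis the FPKM of AF replicate 2 divided by the mean of AF replicates 1 and 3, both on log scales, for the 8 members (red), 28 other positive acute phase genes (open) and the medians over all tested entries (cross). Saa2 and Saa1 lie at the upper right at 115 and 132 times and 48.6 and 60.4 times, while the cross lies at 0.999 and 0.87 times.

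Markers of other cell types were read in the same libraries. The Kupffer cell and macrophage list summed to 132 FPKM in PF replicate 1, within the PF range of 104 to 133 FPKM, and to 194 FPKM in AF replicate 2, the top of the AF range of 93.0 to 194 FPKM. AF replicate 2 was the highest AF library for 10 of the 11 tested genes of that list. The erythroid list, whose 4 tested genes were all highest in AF replicate 2 among the AF libraries, summed to 650 FPKM there and to 333 FPKM in PF replicate 1, the lowest of PF. The hepatocyte sum was the lowest of its group in both libraries, at 20600 and 18600 FPKM. That list holds albumin, Ttr and Apoa1, which are also negative acute phase genes, so its sum is no reading of hepatocyte content alone. Transcripts inside introns, from the long noncoding RNA table, summed to 9430 FPKM in AF replicate 3 and 8930 FPKM in AF with MNA replicate 1 and to 2480 to 4940 FPKM elsewhere. The part of these cell types and transcripts in the member levels was not tested.

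Of 14 listed negative acute phase genes, 13 were tested and none passed either threshold in any comparison. Transthyretin (Ttr) differed by -0.71 ± 0.31, apolipoprotein A1 (Apoa1) by -0.55 ± 0.23 and fetuin-A (Ahsg) by 0.51 ± 0.20 (SE) in AF against PF, with limma adjusted p from 0.395 to 0.446. The median over the 13 was -0.05.

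Upstream of the members, Il6, the main inducing cytokine, was at most 0.08 FPKM in any library. Of 22 listed cytokines and receptors, 15 were tested in AF against PF and none passed either threshold. The subunit of the interleukin-22 receptor Il22ra1 differed by 0.79 ± 0.35 and the interleukin-1 receptor Il1r1 by 0.69 ± 0.34 (SE, limma adjusted p = 0.447 and 0.489). Il22ra1 passed the unadjusted threshold in AF with MNA against PF, at 0.72 ± 0.22, and there Il6ra, the interleukin-6 receptor, differed by -0.65 ± 0.21 (SE, limma adjusted p = 0.273). Among 20 tested signalling and transcription factors none was called by adjusted p. Nfkbia, an inhibitor of NF-kB that NF-kB itself induces, differed by 0.76 ± 0.14 (SE, limma adjusted p = 0.12) in AF against PF, and the hepatocyte factor Onecut1 (-1.05 ± 0.31) and the STAT3 inhibitor Pias3 (-0.75 ± 0.24) passed the unadjusted threshold. Foxa2, a hepatocyte factor, did so in AF with MNA against AF (1.42 ± 0.40, SE). Socs3, a STAT3 target that limits cytokine signalling and was chosen after its values were seen, read 10.5, 1.45 and 1.77 FPKM in PF, 3.63, 8.10 and 2.84 FPKM in AF, and 1.40, 6.10 and 3.44 FPKM in AF with MNA, with its PF and AF maxima in the same libraries as the members.

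Genes that handle the ligands of Hp, Hpx and Lcn2 were also read. Of 14 listed genes of hemoglobin, heme and siderophore handling, 11 were tested, and Blvrb, which reduces biliverdin and flavins, was the gene called: it rose by 1.07 ± 0.12 (SE, limma adjusted p = 0.0298) in AF with MNA against PF. That call was lost whichever of the 6 libraries was left out (limma adjusted p from 0.0677 to 0.101), when every entry above 0 was kept (0.0533), and with the replicate block (0.194) and in the fit that both added a library-size covariate and dropped the moderation (0.332), with the difference between 1.00 and 1.14 throughout. In AF against PF it differed by 0.87 ± 0.15 (SE, limma adjusted p = 0.107), and the ferritin heavy chain Fth1 passed the unadjusted threshold at 1.05 ± 0.29. Hmox1, which opens the heme ring, did so in AF with MNA against PF at 1.18 ± 0.32 (SE). In AF it was at 15.8, 159.9 and 10.5 FPKM, all above its PF values of 6.51, 6.48 and 4.80 FPKM, with AF replicate 2 the highest library as for the members. The difference of 2.19 ± 0.94 (SE, limma adjusted p = 0.441) passed neither threshold in AF against PF, where 18.3% of all entries likewise did not overlap. Bdh2, an enzyme proposed to make the mammalian siderophore, differed by -0.32 ± 0.12 (SE, limma adjusted p = 0.39) in AF against PF.

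Other RNAs at these loci were sparse. A single circular RNA was assigned to a member, an intronic one of Orm1 on chromosome 4 (63346386 to 63346628), with 2 junction reads in PF replicate 2 and 0 in the other 8 libraries. No transcript of the long noncoding RNA table overlapped a member gene. Within 5000 base pairs, an unannotated transcript 2100 base pairs from Apcs on the opposite strand (chromosome 1, 172897141 to 172897719) was at 1.38 and 0.72 FPKM in AF replicates 1 and 3, 0.13 FPKM in AF with MNA replicate 2 and 0 FPKM elsewhere, all PF libraries included. Another, 1337 base pairs from Lcn2 (chromosome 2, 32389589 to 32390834, plus strand), was at 1.51 FPKM in AF replicate 2, where Lcn2 was highest, and at most 0.0568 FPKM in the other libraries. A pair on the minus strand between Saa3 and Saa4 (46723022 to 46723636 and 46723965 to 46725683) peaked at 1.80 and 1.82 FPKM in AF replicate 1. These levels are low and no test was made on them.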

How the data were processed

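Per the labels and the study's methods, rRNA-depleted, strand-specific libraries of mouse liver RNA were sequenced from both ends on an Illumina HiSeq. The submitters' processing notes name cutadapt 1.9, FastQC, HISAT2, StringTie 1.3.4, edgeR and TopHat. The genome build was not given in the sources used here. Of 7841 known lncRNA transcripts found by identifier in GENCODE M21, 7708 had the same start and end, so GRCm38 positions were used. The authors deposited FPKM per gene entry and per lncRNA transcript, and for circular RNAs a junction read count with a scaled signal. The ratio of that count to that signal gave each library's total reads, with a read length of 150 assumed. FPKM keeps no counts, so counting error per gene is unknown. The lncRNA table's authors' coverage columns were not used.

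Entries that had a known transcript and a gene name and averaged 0.5 FPKM or more in the 6 compared libraries were fitted as log2(FPKM + 1) with limma 3.58.1 in R 4.3.3 (empirical Bayes moderation whose prior followed mean level), and p-values were adjusted by Benjamini-Hochberg over all entries, and the fit was checked on simulated data. With 3 libraries against 3, an exact permutation test of a single gene cannot give a p under 0.1, so none was used. Alternatives were a pseudocount of 0.1, median scaling, other filters, no trend, all 9 libraries, a replicate block, a library-size covariate and each library left out. No 2 libraries held the same values. The number of columns of per-sample values left unmatched was 0. The members and lists were chosen with earlier results of these data known. Named were all members, per list the 4 genes with the lowest p and any that passed a threshold, the 3 nearest profiles of each member, and paralogs, except 1 listed gene that is not reported here. Cell type markers were read as sums and counts. Promoters came from RefSeq (GRCm38.p6), with 8 of 10 members matched, and transcripts were aligned with Biopython 1.88.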

Additional observations from a re-analysis of the deposited data

How the results depend on the processing

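The count of members called in AF against PF was 1 under every alternative but the fit of all 9 libraries and the library-size covariate without moderation, where it was 0, and the Apcs adjusted p ran from 0.00368 to 0.271. In both MNA comparisons Apcs passed the threshold of the methods with all 9 libraries and with the replicate block (count 1 against 0). Of all entries, 236 against AF and 477 against PF passed it with all 9 libraries, and 260 and 488 with the replicate block. Leaving out single libraries gave 0 to 1 members by either rule in these comparisons. Of all entries, 211 to 367 against AF and 467 to 545 against PF then passed the threshold of the methods. By adjusted p, 6 to 13 and 24 to 47 were called. Leaving out PF replicate 1 and AF replicate 2 together gave 2 members (Apcs and Lcn2) past the threshold of the methods in AF against PF, where 560 of all entries passed it. Saa4 in AF with MNA against AF passed it without AF with MNA replicate 2, as 211 of all entries did. Apcs in AF with MNA against PF passed it without AF with MNA replicate 1, as 545 of all entries did.

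Members that were not called often changed sign. With the library-size covariate and no moderation, Orm2 (-0.10), Saa2 (-0.98) and Hpx (-0.24) turned in AF against PF, and Saa4 (0.27) and Hpx (-0.25) in AF with MNA against PF. With single libraries left out, the log2 differences in AF against PF ran from 0.43 to 3.05 for Lcn2, -1.14 to -0.02 for Saa4, -0.23 to 0.84 for Orm2, -1.95 to 1.72 for Saa1, -1.82 to 2.03 for Saa2, -0.45 to 0.60 for Hpx and -1.45 to 0.48 for Hp. In AF with MNA against AF they ran from -1.39 to 0.80 for Lcn2, 0.06 to 1.19 for Saa4, -0.35 to 0.55 for Orm2, -0.87 to 2.30 for Saa1, -0.97 to 2.10 for Saa2, -0.24 to 0.56 for Hpx and -0.61 to 1.11 for Hp. Against PF they ran for AF with MNA from 0.46 to 2.54 for Lcn2, -0.07 to 0.95 for Orm2, -0.70 to 0.55 for Saa4, -0.70 to 2.12 for Saa1, -0.73 to 2.15 for Saa2, -0.29 to 0.63 for Hpx and -1.02 to 0.55 for Hp. For Apcs the ranges were -5.88 to -5.25, 2.00 to 4.53 and -3.67 to -1.14. The cause was not tested.

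The replicate numbers did not pair the libraries, since the correlations of same-numbered deviations from the group means lay between -0.08 and 0.061. With the replicate block the entries called by adjusted p went from 40 to 18, from 6 to 1 and from 53 to 0 in the 3 comparisons. Over the alternatives these counts ran from 0 to 86, 0 to 13 and 0 to 52. The counts at the threshold of the methods ran from 265 to 1183, 81 to 675 and 228 to 1104, where the lowest came with a minimum mean of 2 FPKM and the highest with every entry above 0 kept.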
